A study of Mus musculus with 6 samples.

Results

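Haemoglobin is built from alpha-like and beta-like globin chains, each encoded by a small gene cluster that in the mouse lies on chromosome 11 (alpha) and chromosome 7 (beta). Each cluster holds embryonic genes, used by the first red cells of the yolk sac, and adult genes, which take over in fetal liver and bone marrow. In red cell precursors of the marrow, adult globin transcripts build up as the cells mature, and they remain in reticulocytes after the nucleus is lost. The 8 globin genes described here were taken by symbol from a table of 22838 genes: the alpha genes Hba-a1, Hba-a2 and Hba-x, and the beta genes Hbb-b1, Hbb-b2, Hbb-bs, Hbb-bh1 and Hbb-y. Of these, Hba-x, Hbb-bh1 and Hbb-y are embryonic.

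Marrow RNA came from the tibiae and femora of 3 wild-type mice and 3 mice homozygous for loss of Cbx2 (Cbx2-/-), all 3 weeks old and of the mixed strain background 129/C57BL/6. Cbx2 encodes a chromatin-binding subunit of Polycomb repressive complex 1, and the series asks how it acts on bone and fat formation in long bones after birth. The labels give average body weights of 12.3 g (wild-type) and 4.0 g (Cbx2-/-), so genotype and body size cannot be told apart here. No source used here gives the allele, the deleted exons or the sex of the animals. Cbx2 itself was at 2.90, 3.83 and 2.75 FPKM in wild-type replicates 1, 2 and 3 and at 2.11, 1.87 and 1.88 FPKM in the Cbx2-/- libraries (limma adjusted p = 0.0558), and without the deleted exons this row does not check the allele.

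Values are FPKM, the fragments assigned to a gene, scaled to transcript length in kilobases and to the number of mapped fragments. The libraries summed to between 599601 and 741192 FPKM. Genotypes were compared by limma on log2(FPKM + 1), with adjusted p under 0.05 as the threshold, over the 12006 genes that reached 1 FPKM in 3 or more of the 6 libraries. The median difference of all tested genes was 0.02 (log2). Summed markers of most other cells differed between the libraries. Sums are led by their highest genes, such as Fabp4 for adipocytes, and Adipoq, Emr1 (macrophage) and Pecam1 (endothelial) overlapped between the genotypes. Osteoblast markers (7 genes) summed to 6483 to 10705 FPKM in wild-type and 625 to 930 FPKM in Cbx2-/- libraries, and adipocyte markers (6 genes) to 208 to 410 and 2007 to 2596 FPKM. Macrophage markers (9 genes) summed to 668 to 801 and 1139 to 1416 FPKM, and endothelial markers (6 genes) to 53.6 to 55.4 and 92.6 to 133 FPKM. Summed neutrophil markers (14 genes) were at 40176 to 45092 FPKM in wild-type and 57414 to 88717 FPKM in Cbx2-/- libraries, and summed B cell markers (9 genes) at 656 to 891 and 109 to 218 FPKM in the same order. Summed skeletal muscle markers (9 genes) were at 421 and 496 FPKM in Cbx2-/- replicates 1 and 2, at 14.5 FPKM in replicate 3 and at 23.9 to 36.4 FPKM in wild-type. Megakaryocyte and platelet markers (8 genes) overlapped, with sums of 1034 to 2025 FPKM in wild-type and 699 to 1221 FPKM in Cbx2-/- libraries. Hepatocyte markers (6 genes) summed to at most 0.902 FPKM. The part of these cells in the globin values was not tested.

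The adult genes of each cluster are near-copies, which bears on how far single rows can be read. In the GENCODE transcripts of GRCm38 (the assembly of mm10), the coding sequences of Hba-a1 and Hba-a2 (429 bases each) differed at 1 base, C381T, counted from 1 at the start codon. The following 49-base stretches, from chr11:32284319-32284367 and chr11:32297136-32297184 on the plus strand, are shown because they hold that difference, in capitals.
Hba-a1: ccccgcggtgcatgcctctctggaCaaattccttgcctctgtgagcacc
Hba-a2: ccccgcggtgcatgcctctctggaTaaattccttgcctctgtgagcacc

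The reference assembly comes from C57BL/6J, whose adult beta genes are named Hbb-bs and Hbb-bt. Their coding sequences (444 bases each) also differed at 1 base, C417T, shown in the same way from chr7:103826668-103826716 and chr7:103812659-103812707 on the minus strand.
Hbb-bs: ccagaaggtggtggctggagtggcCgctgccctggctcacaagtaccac
Hbb-bt: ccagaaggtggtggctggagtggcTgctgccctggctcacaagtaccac

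The reads were 50 bases long, about as long as these stretches. Of the 50-base windows of the Hba-a1 transcript 67.5% were identical in Hba-a2, and 86.9% of those of Hba-a2 in Hba-a1. For Hbb-bs 65.8% were identical in Hbb-bt, and for Hbb-bt 58.3% in Hbb-bs. No window of Hba-x, Hbb-bh1 or Hbb-y occurred in a transcript of another gene, so their reads can be told from those of adult genes by an exact match. The first 90 coding bases show the distance, with bases that differ from Hba-a1 (for Hba-x) or from Hbb-bs (for Hbb-bh1 and Hbb-y) in capitals.
Hba-a1 (chr11:32283707-32283796, plus strand): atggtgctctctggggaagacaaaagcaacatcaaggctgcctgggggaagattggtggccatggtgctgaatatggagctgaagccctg
Hba-x (chr11:32276664-32276753, plus strand): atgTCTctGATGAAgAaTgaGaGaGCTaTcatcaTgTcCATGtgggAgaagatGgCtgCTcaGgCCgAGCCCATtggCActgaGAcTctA
Hbb-bs (chr7:103827786-103827875, minus strand): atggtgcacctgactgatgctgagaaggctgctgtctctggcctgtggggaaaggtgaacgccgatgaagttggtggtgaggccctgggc
Hbb-bh1 (chr7:103843021-103843110, minus strand): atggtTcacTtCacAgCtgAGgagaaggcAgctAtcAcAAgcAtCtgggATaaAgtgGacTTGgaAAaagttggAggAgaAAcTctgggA
Hbb-y (chr7:103853063-103853152, minus strand): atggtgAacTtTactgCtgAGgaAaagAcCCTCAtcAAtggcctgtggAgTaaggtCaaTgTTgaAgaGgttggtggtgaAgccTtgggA

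Over the whole coding sequence, Hba-x matched Hba-a1 at 62.0% of bases, Hbb-bh1 and Hbb-y matched Hbb-bs at 74.1% and 74.3%, and they matched each other at 76.4%. The deposited rows do not separate the adult copies by position. Hba-a1 and Hba-a2 carry the same locus (chromosome 11, 32283671 to 32284493), which in RefSeq's GRCm38.p6 table holds Hba-a1 alone. Hbb-b1 and Hbb-bs share another (chromosome 7, 103826522 to 103827929), where RefSeq has Hbb-bs, and the Hbb-b2 row (chromosome 7, 103812523 to 103813923) lies where RefSeq has Hbb-bt. Hbb-b1 and Hbb-b2 are the gene names of the other common mouse haplotype of the beta cluster, carried by strains such as 129. A sum over a cluster depends less than single adult rows on how reads were split between its rows. It is not free of that split, since FPKM divides by transcript length. The GENCODE transcripts of Hba-a1 and Hba-a2 have 699 and 554 bases, and those of Hbb-bs and Hbb-bt 628 and 703. No member row lies at the RefSeq position of Hba-a2 (chromosome 11, 32296492 to 32297310). Whether reads placed there are in the alpha sum is not known.

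Hbb-b1, the row named for the adult major beta chain gene but lying where RefSeq has Hbb-bs, was the highest of all 22838 genes in each of the 6 libraries. In wild-type replicates 1, 2 and 3 it was at 89984, 61102 and 63429 FPKM, and in the Cbx2-/- replicates, in the same order, at 54083, 38439 and 88012 FPKM. The groups overlapped, with Cbx2-/- replicate 3 near the top of the wild-type range and replicates 1 and 2 below it. The difference of -0.31 ± 0.45 (log2, SE) did not pass (limma adjusted p = 0.693).

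Hba-a1, the adult alpha chain row, had the same order among the Cbx2-/- libraries. It was at 19187, 16159 and 15739 FPKM in wild-type and at 12350, 6681 and 20313 FPKM in Cbx2-/- libraries, at ranks 2 to 7 among all genes. Here Cbx2-/- replicate 3 was above every wild-type library and replicates 1 and 2 below every one. The difference was -0.51 ± 0.44 (log2, SE, limma adjusted p = 0.471). Without Cbx2-/- replicate 3 it was -0.90 with a limma adjusted p of 0.0367. In that fit 1719 of all tested genes were lower and 2069 higher, against 998 and 1057 with all libraries. Hba-a2 was listed at 0.163 to 0.174 FPKM in wild-type and 0.170 to 0.414 FPKM in Cbx2-/- libraries and did not pass the filter on low values. With 86.9% of its windows shared with Hba-a1, the split between these rows is uncertain.

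Hbb-b2, the row named for the adult minor beta chain gene but lying where RefSeq has Hbb-bt, had separate groups. It was at 17256, 19063 and 16807 FPKM in wild-type and at 10161, 6016 and 13671 FPKM in Cbx2-/- libraries, so each Cbx2-/- library was below each wild-type library. The difference of -0.91 ± 0.37 (log2, SE) did not pass (limma adjusted p = 0.137). It passed without Cbx2-/- replicate 3 (-1.18, limma adjusted p = 0.00872), a fit in which more of all tested genes passed. Hbb-bs, listed at 1233, 1222 and 1075 FPKM in wild-type and at 992, 882 and 1031 FPKM in Cbx2-/- libraries, also had separate groups, but differed by only -0.28 ± 0.21 (log2, SE, limma adjusted p = 0.396). Its values spread far less than those of Hbb-b1, which shares its locus: the ratio of Hbb-b1 to Hbb-bs ran from 43.6 to 85.4 over the 6 libraries.

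By level in wild-type marrow the order was Hbb-b1, then Hbb-b2 and Hba-a1, then Hbb-bs, with the embryonic genes and Hba-a2 at the bottom. Hbb-b2 (17709 ± 1194 FPKM, SD, n = 3) and Hba-a1 (17028 ± 1882 FPKM) did not differ beyond their spread. Neither did Hbb-y (1.22 ± 0.59 FPKM) and Hbb-bh1 (1.16 ± 0.492 FPKM). In Cbx2-/- marrow the means of Hba-a1 (13115 ± 6848 FPKM) and Hbb-b2 (9949 ± 3832 FPKM) were again within their spread.

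**Figure D1:**
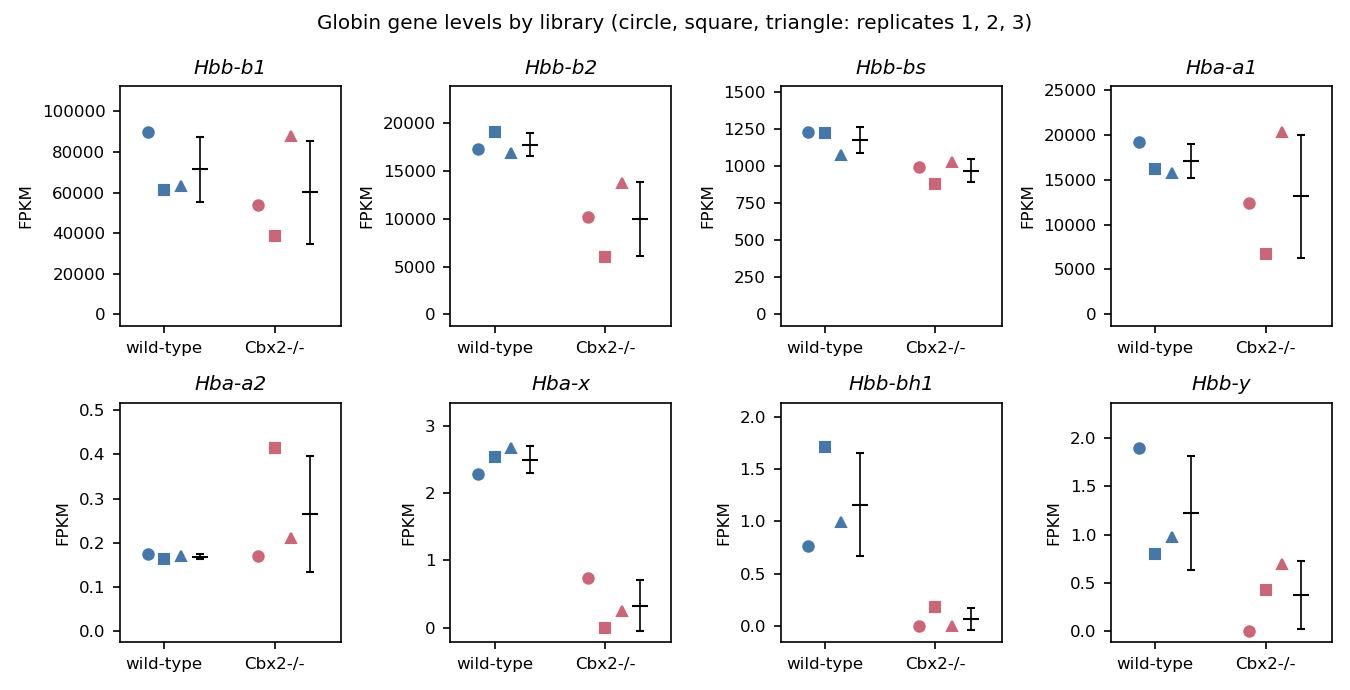
FPKM of each of the 8 globin genes (vertical axes, each with its own scale) in 3 wild-type (blue) and 3 Cbx2-/- (red) libraries, with the mean and SD of each group in black. Cbx2-/- replicate 3 (triangle) is the highest Cbx2-/- library in all adult rows other than Hba-a2, and every Cbx2-/- value of Hba-x, Hbb-bh1 and Hbb-y is below every wild-type value.

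Summed by cluster, the beta genes gave 108475, 81388 and 81313 FPKM in wild-type and 65236, 45338 and 102715 FPKM in Cbx2-/- libraries, a difference of -0.41 ± 0.37 (log2, SE, n = 3 each). The alpha genes gave 19190, 16161 and 15741 FPKM in wild-type and 12351, 6681 and 20314 FPKM in Cbx2-/- libraries, a difference of -0.51 ± 0.47 (log2, SE). Both clusters overlapped between the genotypes, and both were lower than every wild-type library in Cbx2-/- replicates 1 and 2. Leaving out Cbx2-/- replicates 1 and 2, the libraries with muscle transcripts (an alternative added after the data were seen), turned the differences to 0.20 for the beta and 0.26 for the alpha cluster. Leaving out replicate 3 took them to -0.72 and -0.90.

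As a share of the summed FPKM, the 8 genes took 17.8%, 14.7% and 13.9% in wild-type and 10.9%, 7.02% and 20.5% in Cbx2-/- libraries. The beta cluster accounted for 11.6% to 15.1% in wild-type and for 9.15%, 6.12% and 17.1% in Cbx2-/- replicates 1, 2 and 3. The alpha cluster accounted for 2.25% to 2.67% in wild-type and for 1.73%, 0.901% and 3.39% in the Cbx2-/- libraries. The SD of the whole globin share was 2.05 percentage points in wild-type and 6.95 in Cbx2-/- marrow, and the difference of the means, 15.4% against 12.8%, was smaller than the second of these. FPKM is relative to all mapped fragments, so a large globin share can lower the values of other genes, but the summed FPKM also differed between libraries. The summed FPKM outside the globins was 476572 in Cbx2-/- replicate 3 and 565283 to 689172 in the other libraries. Wild-type replicate 1 had 591049 outside the globins, with a globin sum of 127665 FPKM against 123029 FPKM in Cbx2-/- replicate 3. Why these sums differ was not tested.

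**Figure D2:**
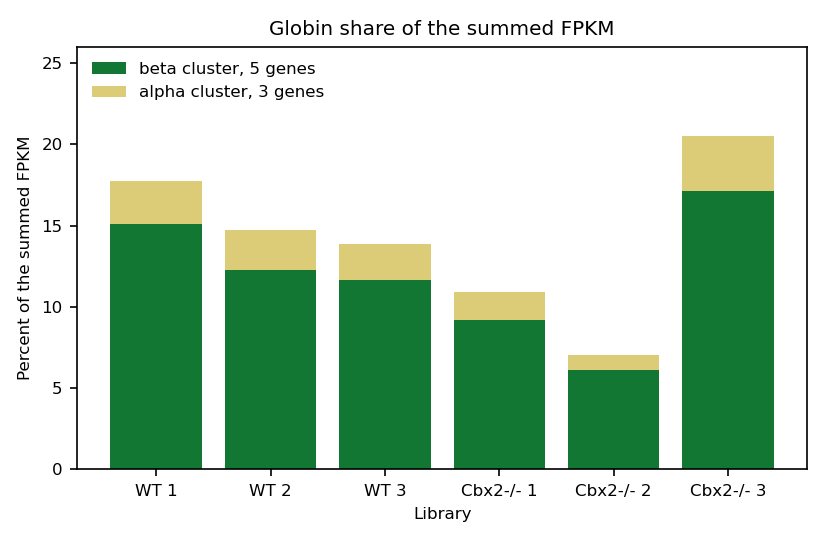
Percent of the summed FPKM (vertical axis) taken by the 5 beta cluster genes (green) and the 3 alpha cluster genes (yellow) in each library (horizontal axis). The total runs from 13.9% to 17.8% in wild-type and is 10.9%, 7.02% and 20.5% in Cbx2-/- replicates 1, 2 and 3.

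The proportions between the chains varied less than their levels. The beta cluster exceeded the alpha cluster 5.65-, 5.04- and 5.17-fold in wild-type and 5.28-, 6.79- and 5.06-fold in Cbx2-/- libraries. The size of this ratio is uncertain, since the alpha sum may lack reads placed at the Hba-a2 position. Cbx2-/- replicate 2, which had the lowest globin share, had the highest ratio, and the groups overlapped. Among the beta rows, Hbb-b2 made up 15.9%, 23.4% and 20.7% of the cluster in wild-type and 15.6%, 13.3% and 13.3% in Cbx2-/- libraries. The groups were separate, though wild-type replicate 1 and Cbx2-/- replicate 1 nearly met. Whether the animals differed in beta haplotype, which a mixed strain can, was not tested.

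The embryonic genes were at the edge of detection. Hba-x, the embryonic zeta-like alpha chain gene, was at 2.28, 2.54 and 2.68 FPKM in wild-type libraries. Of the Cbx2-/- libraries, replicate 1 had 0.733 and replicate 3 had 0.249 FPKM, and replicate 2 was listed at 0. The difference was -1.43 ± 0.21 (log2, SE, limma adjusted p = 0.00457), but Hba-x entered the test only through the wild-type libraries, where it is high, so this p is given as a description. Hbb-bh1, an embryonic beta chain gene, was at 0.768, 1.71 and 0.997 FPKM in wild-type, at 0.183 FPKM in Cbx2-/- replicate 2, and listed at 0 in replicates 1 and 3. Hbb-y, the embryonic epsilon-like beta chain gene, was at 1.89, 0.793 and 0.975 FPKM in wild-type, listed at 0 in Cbx2-/- replicate 1, and at 0.427 and 0.697 FPKM in replicates 2 and 3. Each of the 3 genes was lower in all Cbx2-/- than in all wild-type libraries, as were 18.2% of all tested genes. Hbb-bh1 and Hbb-y were not tested, so that share does not cover them.

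Summed, the embryonic genes gave 4.95, 5.04 and 4.65 FPKM in wild-type and 0.733, 0.610 and 0.946 FPKM in Cbx2-/- libraries, 6.40-fold lower by the means (-2.70 ± 0.19, log2, SE). Relative to the FPKM of all 8 globins this was 38.7 to 51.7 ppm in wild-type and 7.69 to 11.7 ppm in Cbx2-/- marrow. Cbx2-/- replicate 3, whose globin sum was within the wild-type range, had the lowest embryonic proportion. Hbb-bh1 and Hbb-y did not pass the filter. Levels this low rest on few reads, whose number the table does not give.

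Of the 8 genes, 5 passed the filter. Leaving Hba-x aside, 0 of the other 4 passed limma's adjusted p, and Hbb-b2 had the lowest unadjusted limma p of them (0.0413). Among all tested genes 8.31% were lower, 8.8% higher and 17.1% called in either direction (limma, adjusted p under 0.05). Of these 4, Hbb-b2 and Hbb-bs had every Cbx2-/- library below every wild-type library, where 18.2% of all tested genes did and 39.6% had separate groups in either direction. With so few members these counts only describe the genes.

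The alpha cluster also holds the theta genes Hbq1a and Hbq1b, globin-like genes of unclear product. Hbq1b (chromosome 11, 32286963 to 32287912) was at 55.5, 62.0 and 63.5 FPKM in wild-type and at 18.1, 18.0 and 20.9 FPKM in Cbx2-/- libraries. Its fall was 3.18-fold by the means (-1.62 ± 0.14, log2, SE, limma adjusted p = 0.000728), and it passed whichever library was left out. Hbq1a was at 5.53, 8.51 and 7.28 FPKM in wild-type and at 5.61, 1.61 and 5.51 FPKM in Cbx2-/- libraries, with overlapping groups (limma adjusted p = 0.197). As 39.8% of the windows of Hbq1b occur in Hbq1a, their split is uncertain. Summed, the theta genes were at 61.1 to 70.7 FPKM in wild-type and 19.6 to 26.4 FPKM in Cbx2-/- marrow, with Cbx2-/- replicate 3, the highest of its group, still below every wild-type library. Hbb-bh2 was listed at 0 in all libraries other than wild-type replicate 3, where it was at 0.193 FPKM.

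The globins outside the 2 clusters serve other cells. Cygb, the cytoglobin gene of fibroblasts and stellate cells, rose from 2.68 ± 0.229 to 12.5 ± 2.85 FPKM (SD, n = 3 each), a difference of 1.85 ± 0.17 (log2, SE, limma adjusted p = 0.000892). Mb, the myoglobin gene of muscle, was at 1.82 FPKM in Cbx2-/- replicate 2, a library with muscle transcripts, and at most 0.160 FPKM in the others. Ngb, the neuroglobin gene, was at most 0.328 FPKM.

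Most genes listed around the clusters did not pass the test. Nor did most of all tested genes, of which 8.31% were lower and 8.8% higher (limma, adjusted p under 0.05). Of the 6 genes tested as neighbours of the alpha cluster, Luc7l lies on chromosome 17 in these files and is no neighbour. Of the other 5, on chromosome 11, 1 fell, Sh3pxd2b, an adaptor gene of matrix-degrading cell protrusions, from 4.82 to 6.78 FPKM in wild-type to 2.23 to 3.49 FPKM in Cbx2-/- libraries (limma adjusted p = 0.014). Nprl3, whose introns hold the main enhancers of the alpha genes, was at 12.3 to 13.7 FPKM in wild-type and 9.15 to 11.5 FPKM in Cbx2-/- marrow (limma adjusted p = 0.13). Of 8 tested genes listed for the beta cluster 0 passed limma's adjusted p. None adjoins the globin rows (103812523 to 103853207 on chromosome 7): they end by 102687326 or start from 104244456. Rrm1, a ribonucleotide reductase gene, was lowest in Cbx2-/- replicate 3 at 32.1 FPKM against 98.8 to 114 FPKM in wild-type. Trim21 had the lowest unadjusted limma p of these 8, at 0.038 (limma adjusted p = 0.129).

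The promoters of the members were searched on both strands for short motifs in windows of 250 bases before to 50 bases after the start (RefSeq, GRCm38.p6). The windows of Hba-a1 and Hba-a2 were identical over the 297 bases they share. CCAAT, the box bound by general factors, was in those of Hba-a1, Hba-a2, Hbb-bs, Hbb-bt, Hbb-y, Hbq1a and Hbq1b and in 37.4% of all windows. The CACC box written CCNCACCC, of the kind bound by Klf1, was in Hbb-bs and Hbb-bt and in 16.6% of all windows. TGACCA, a half-site of nuclear receptors, was in both embryonic genes with an entry, Hba-x and Hbb-y, and in 13.6% of all windows. In Hbb-y it overlapped CCAAT. The box written TATAAA was in Hba-x and Hbb-bt (13.6% of all windows). The letters TGATAA, which GATA factors can bind, were in Hba-a1, Hba-a2, Hba-x and Hbb-y (9.05% of all windows), and AGATAA in Hbb-bs (11.2%). The 120 bases before the start are shown for 1 adult and 1 embryonic gene, with these motifs in capitals, because CCAAT begins at a like distance from the start in both (-91 and -83).
Hba-a2 (chr11:32296372-32296491, plus strand): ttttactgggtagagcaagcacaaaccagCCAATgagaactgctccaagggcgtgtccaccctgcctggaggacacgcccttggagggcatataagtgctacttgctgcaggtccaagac
Hbb-y (chr7:103853208-103853327, minus strand): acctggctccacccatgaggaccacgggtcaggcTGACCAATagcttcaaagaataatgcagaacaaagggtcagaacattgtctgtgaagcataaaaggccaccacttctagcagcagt

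Some regulators of the globin genes were lower in Cbx2-/- marrow. Of 23 tested regulators, 8 fell, 0 rose and 15 did not pass, with a median difference of -0.54 (log2). Over all tested genes 8.31% fell and 8.8% rose, with a median of 0.02, which is also the background for the lists that follow. Klf1, the erythroid factor that activates adult beta globin, fell from 290.2 ± 37.7 to 96.8 ± 55.4 FPKM (SD, n = 3 each, limma adjusted p = 0.0258). Sox6, a partner of Bcl11a in silencing Hbb-y, fell 3.13-fold. Eif2ak1, the kinase that matches globin translation to haem, fell from 108 ± 8.83 to 48.6 ± 5.13 FPKM. Tal1, a factor at the globin enhancers, fell 2.16-fold. Leaving out single libraries removed the call of Klf1 in 4 and of Tal1 in 3 of 6 fits.

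Among the Cbx2-/- libraries, Klf1 was lowest in replicate 3, where the adult globins were highest. Its Cbx2-/- values were 93.5, 154 and 43.0 FPKM, all below the wild-type values of 325, 296 and 250.03 FPKM. Gata1, the main erythroid transcription factor gene, named after its values were seen, ran the same way at 56.4, 75.4 and 25.99 FPKM in Cbx2-/- and 88.3 to 109 FPKM in wild-type libraries (limma adjusted p = 0.0859). Bcl11a, a repressor of embryonic globins, had means of 13.1 ± 1.26 (wild-type) and 10.6 ± 2.31 FPKM (Cbx2-/-, SD, n = 3 each) and did not pass (limma adjusted p = 0.292). Zbtb7a, another, was at 16.8 to 20.8 FPKM and 14.7 to 16.9 FPKM (limma adjusted p = 0.285). The fetal RNA-binding genes Lin28b and Igf2bp1 were at most 0.0829 FPKM. Without wild-type replicate 1, 2 or 3 or Cbx2-/- replicate 1, only 2, 2, 3 and 2 regulators fell. In those fits the genes lower among all tested also numbered 475 to 551, against 998 with all libraries.

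Most haem synthesis genes fell, while Alas2, the gene of the first step in red cells, did not pass the test. Of 15 genes, 10 fell, 1 rose and 4 did not pass, with a median of -1.43 (log2). Slc25a37, the mitochondrial iron carrier gene mitoferrin, fell from 306 ± 42.7 to 91.7 ± 15.5 FPKM (SD, n = 3 each, limma adjusted p = 0.00204). Abcb10, which stabilises that carrier, fell 2.75-fold and Ppox, a late enzyme, 2.45-fold. Alas1, the housekeeping form of the first enzyme, rose from 35.1 ± 3.2 to 65.6 ± 10.1 FPKM, which no longer passed without wild-type replicate 1 or 3. Alas2, its erythroid form, was at 1268, 1312 and 1125 FPKM in wild-type and at 940, 494 and 1534 FPKM in Cbx2-/- libraries (limma adjusted p = 0.467). Among the Cbx2-/- libraries Alas2, like Hbb-b1, Hbb-b2 and Hba-a1, was lowest in replicate 2 and highest in replicate 3. Without wild-type replicate 1, 2 or 3 or Cbx2-/- replicate 1, 5, 5, 6 and 5 of these genes fell.

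Of 9 genes listed for haemoglobin assembly and protection, 4 fell and 5 did not pass (median -0.54). Ahsp, the alpha globin chaperone gene, was also planned for this list but was not found by that symbol or as Eraf. The counts of these assembly genes therefore do not cover it. Hagh, a methylglyoxal-detoxifying enzyme of red cells, fell 2.75-fold (limma adjusted p = 0.00298). Prdx2, the main red cell peroxiredoxin gene, fell 2.55-fold and Gpx1, a glutathione peroxidase gene, 1.83-fold, and neither passed without wild-type replicate 1, 2 or 3 or Cbx2-/- replicate 1. Eif2ak1 is also in this list. Bpgm, whose product makes the 2,3-bisphosphoglycerate that tunes oxygen release, was at 377, 522 and 359 FPKM in wild-type and at 325, 158 and 508 FPKM in Cbx2-/- libraries, again lowest in replicate 2 and highest in replicate 3 of that group.

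Most other genes of maturing red cells fell. Of 35 terminal erythroid genes, 23 fell, 0 rose and 12 did not pass, with a median of -1.18 (log2). Trim10, a ubiquitin ligase gene of erythroblasts, fell 4.55-fold (limma adjusted p = 0.00113) and Tmod1, which caps actin in the membrane skeleton, 2.96-fold. Kel, a blood group gene, fell 3.08-fold. Without wild-type replicate 1, 15 fell. In bulk marrow, fewer red cell precursors and less of a transcript in each cannot be told apart.

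Some terminal genes were low in Cbx2-/- replicates 1 and 2 but not in replicate 3, as the globin sum was. In replicates 1 and 2, 33 of the 35 genes were below the wild-type range, where 33.7% and 31.5% of all tested genes were. In replicate 3, 27 were below it (43.5% of all tested genes), 2 within and 6 above (38.4% of all tested genes). Of those 6, named after their values were seen, Alas2, Fam46c, Ube2l6, Epb4.1 and Bnip3l were below the range in replicates 1 and 2. The other, Slc2a1, a glucose transporter gene, was above it in all 3 Cbx2-/- libraries, at 9.77, 8.30 and 19.3 FPKM against 5.64 to 6.28 FPKM in wild-type (limma adjusted p = 0.0701). Car1, also in this list, was above the range in replicates 1 and 2 and within it in replicate 3. Its values were 662, 1107 and 260 FPKM in Cbx2-/- and 191 to 265 FPKM in wild-type libraries (limma adjusted p = 0.0839). Fam46c, a poly(A) polymerase gene, was at 93.6, 95.7 and 81.7 FPKM in wild-type and at 45.4, 26.4 and 101 FPKM in Cbx2-/- libraries. Epb4.1, the membrane skeleton protein 4.1 gene, was at 133 to 163 FPKM in wild-type and at 113, 73.9 and 237 FPKM in Cbx2-/- libraries. Bnip3l, needed to clear mitochondria from reticulocytes, was at 95.2 to 121 FPKM in wild-type and at 72.1, 71.6 and 134 FPKM in Cbx2-/- libraries. Slc4a1, the band 3 anion exchanger gene, was below the range in all 3: it was at 699 to 820 FPKM in wild-type and at 191, 259 and 246 FPKM in Cbx2-/- libraries.

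The ratio of globins to Slc4a1 was larger in each Cbx2-/- library. The summed globins were 156, 139 and 139 times Slc4a1 in wild-type and 407, 201 and 499 times in Cbx2-/- replicates 1, 2 and 3, with separate groups. The ratios to Alas2 overlapped, at 101, 74.4 and 86.3 in wild-type and 82.6, 105 and 80.2 in Cbx2-/- libraries. Against the summed terminal list the ratios were 10.3 to 13.2 in wild-type and 16.5, 10.4 and 22.7 in Cbx2-/- libraries, with overlapping groups. These comparators were chosen after the values were seen, apart from the terminal list.

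**Figure D3:**
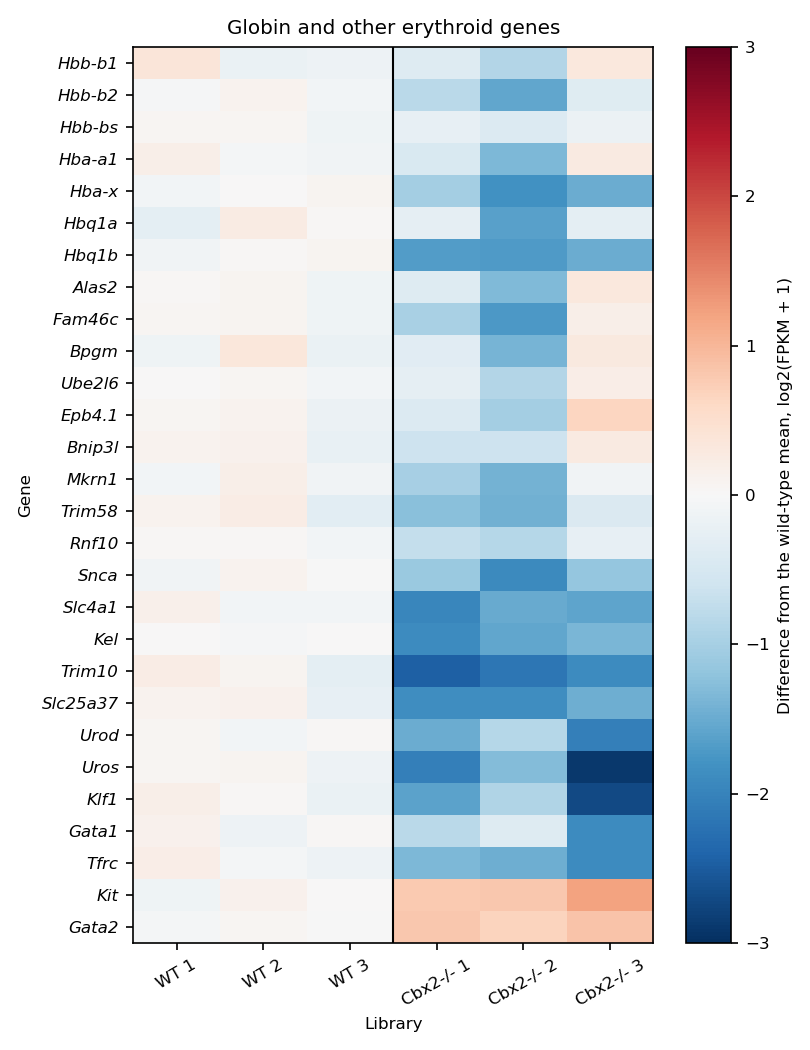
Difference of log2(FPKM + 1) from the wild-type mean (colour, red higher and blue lower, limits of the scale at 3) for globins and other erythroid genes (rows) in each library (columns). In Cbx2-/- replicate 3 the adult rows Hbb-b1 and Hba-a1, and Alas2, Fam46c, Bpgm, Ube2l6, Epb4.1 and Bnip3l, are above the wild-type mean, while Slc4a1, Kel and Klf1 are below it in all 3 Cbx2-/- libraries.

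Of 20 genes of early red cell precursors, 6 fell, 2 rose and 12 did not pass (median -0.46), where 8.31% of all tested genes fell and 8.8% rose. Tfrc, the transferrin receptor gene through which erythroblasts take up iron, fell 2.96-fold (limma adjusted p = 0.00289). Gata2, a stem and progenitor factor gene, rose from 5.29 ± 0.278 to 9.79 ± 0.716 FPKM, and Kit, the stem cell factor receptor gene, from 8.01 ± 0.804 to 16.4 ± 3.05 FPKM (SD, n = 3 each). Hes6 fell 1.74-fold. Of the list 7 genes are also among the regulators, including 4 of the 6 that fell. Without wild-type replicate 1, 2 or 3 or Cbx2-/- replicate 1, only 1, 2, 2 and 2 genes fell. The summed list was lowest in Cbx2-/- replicate 3 at 699.6 FPKM, against 1156 and 1388 FPKM in replicates 1 and 2 and 1548 to 1724 FPKM in wild-type. The ratio of globins to early genes was therefore 176 in that library, 67.1 and 37.5 in the other Cbx2-/- libraries and 61.8 to 74.1 in wild-type.

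**Figure D4:**
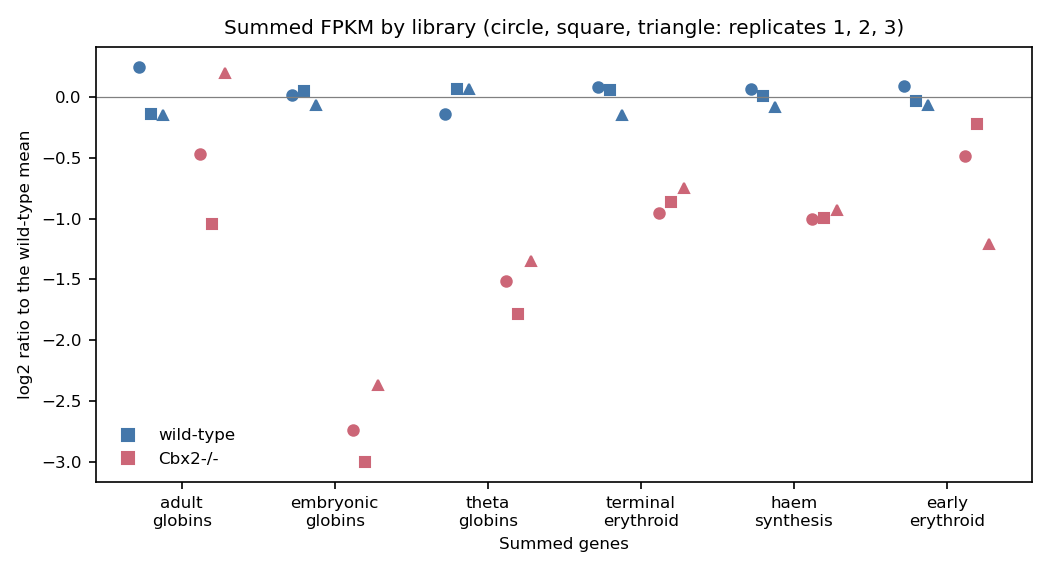
Log2 ratio of summed FPKM to the wild-type mean (vertical axis) for adult, embryonic and theta globins and for 3 lists of other erythroid genes (horizontal axis), 1 point per library. Adult globins of Cbx2-/- replicate 3 lie above the wild-type mean, while embryonic and theta globins and the terminal and haem synthesis lists lie below every wild-type library in all 3 Cbx2-/- libraries.

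Across the 6 libraries, the genes most like the summed globins by Pearson correlation of log2 values, among 7984 named genes with a mean of at least 5 FPKM, were Zfp35, Nrd1, Cdk12, Cldn10, Fam46c, Cd7, Olfml2b and Wnk1, with r from 0.951 to 0.981. The least like were Rab4a, Flt3l and Mcee, with r from -0.992 to -0.988. None of these 11 genes passed the genotype test (limma, adjusted p 0.148 to 0.842). Of the erythroid lists Fam46c (0.953), Alas2 (0.951) and Ube2l6 (0.948) had the highest r. With 6 points, shared library effects and so many candidates, values this high describe these libraries only.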

How the data were processed

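Bone marrow RNA of 3 wild-type and 3 Cbx2-/- mice was read as 50-base single-end reads from a stranded poly(A) library kit on a HiSeq 1000, per the labels' protocols. The authors deposited FPKM values per gene and library. The tools FastQC 0.11.5, TopHat2 2.1.0 and Cufflinks 2.2.1 and the build mm10 are listed, without their roles, in the submitters' processing notes. No source used here gives the annotation, the strand setting or the treatment of reads with several matches. The deposited lower and upper limits equalled each other in every row. They equalled the FPKM for 6 of the globins, but for Hba-a1 they were 21.9% to 47.4% of it, and were not used as intervals. No source used here gives total reads. From the steps between low values, depths were roughly 0.91 to 1.2 relative to wild-type replicate 1.

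Differences were fitted with limma 3.58.1 in R 4.3.3 on log2(FPKM + 1), with empirical Bayes and a mean-variance trend, two-sided and with no covariate, and were adjusted by Benjamini-Hochberg over 12006 genes. This scale understates changes of low genes. The script was tested on simulated data. Sums and ratios over the globins are given with SD or SE and no p, since an exact permutation test of 3 against 3 libraries cannot go below 0.1. The limma p-values set the difference between genotypes against the spread between animals within genotypes, pooled over both and moderated over all genes. The genes, lists and comparisons were chosen with earlier results of these data known. Named are all members, up to 4 genes per list with the lowest adjusted p, globin family genes, and genes ranked by correlation with the globin sum; other genes were named after their values were seen, among them Slc4a1, Gata1, Bcl11a, Zbtb7a, Alas2, Bpgm, Nprl3 and Rrm1. Some genes that this rule names are not reported here, though list counts include them. Sequences are from GENCODE vM21 (GRCm38) and RefSeq (GRCm38.p6), where promoter entries were matched by symbol for Hba-a1, Hba-a2, Hba-x, Hbb-bs and Hbb-y. Other pseudocounts, filters, scalings, limma settings, a replicate block and leaving out each library were tried. Figures were drawn with matplotlib 3.10.9.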

Additional observations from a re-analysis of the deposited data

How the results depend on the processing

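Hbb-b1 and Hbb-bs passed in none of the alternatives that were run, and Hba-x, tested only through its wild-type level, is not counted here. Hba-a1 passed without Cbx2-/- replicate 3 (limma adjusted p = 0.0367). Hbb-b2 passed with quantile normalization (limma adjusted p = 0.0426), with array weights (0.00493) and without Cbx2-/- replicate 3 (0.00872). Summed globin differences kept their direction under every planned scaling. The share and the ratios cannot change when a whole library is multiplied by a factor, so the scalings do not test them. Ranges over fits leaving out 1 library were -0.75 to -0.12 (all 8), -0.90 to -0.10 (alpha), -0.72 to -0.13 (beta), -2.87 to -2.55 (embryonic) and -0.81 to -0.04 (share). The ratio of beta to alpha ran from -0.030 to 0.18 and turned sign without Cbx2-/- replicate 2 (-0.030). Globins over early genes ran from -0.40 to 0.72 and turned sign without Cbx2-/- replicate 3 (-0.40), and globins over terminal genes ran from 0.16 to 0.72. Without both Cbx2-/- replicates 1 and 2, chosen after seeing the data and with 1 Cbx2-/- library assumed to vary like the others, the values were 0.21 (all 8), 0.26 (alpha), 0.20 (beta), -2.37 (embryonic), 0.42 (share), -0.062 (beta to alpha), 0.96 (over terminal) and 1.41 (over early), and Epb4.1 turned to 0.65. In that fit 2047 genes were higher and 2714 lower, with 1 regulator higher and 14 lower, 2 terminal genes higher and 12 early genes lower. The cause of these moves was not tested.

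Over the fits leaving out 1 library, genes higher ran from 367 to 2069 and genes lower from 475 to 1719. Both were most frequent without Cbx2-/- replicate 3. Calls were fewer than the 1057 and 998 of all libraries whenever a wild-type library or Cbx2-/- replicate 1 was left out. List counts ran from 2 to 12 regulators lower, and from 5 to 13 haem genes lower and 0 to 1 higher. Assembly genes ran from 2 to 5 lower and 0 to 1 higher. Terminal genes ran from 15 to 30 lower and 0 to 2 higher, and early genes from 1 to 9 lower and 2 to 4 higher. The globin family list ran from 1 to 2 lower. That list also holds the members Hbb-b1 and Hbb-b2, and wherever 2 of its genes were lower they were Hbq1b and the member Hbb-b2. With array weights 3278 genes were higher and 2684 lower, with 2 regulators higher and 13 lower, and 1 assembly gene and 2 terminal genes higher. In the same fit 4 early genes were higher and 10 lower, and 2 genes of the globin family list were lower. With no filter 5 regulators and 2 assembly genes were lower. Scaling to the same total, with or without the globins, and quantile normalization each gave 1 terminal gene higher. Scaling without the globins gave 598 genes higher, and quantile normalization 2 genes of the globin family list lower. The scalings moved the median of all genes by -0.02 to 0.02 (log2). The replicate numbers did not pair the libraries: deviations of same-numbered libraries correlated at 0.19, -0.18 and -0.10. With the replicate block 634 genes were higher, and 5 regulators and 2 assembly genes lower. The differences of the globin sums (-0.43 for all 8) cannot change with this block in a balanced design, so they are no check.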
